A study of Mus musculus with 15 samples.

Results

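The liver X receptors LXRα (gene Nr1h3) and LXRβ (Nr1h2), their partner receptor RXRα (Rxra) and 4 genes known as LXR targets that do not encode transporters (Mylip, Lpcat3, Arl4c and Smpdl3a) were examined in RNA of mouse distal jejunum. The 7 genes were found by symbol in a table of 26844 genes. All 7 passed the filter on low values, a normalised count of at least 10 in at least 3 libraries, which 14299 genes of the table passed.

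All mice were male C57BL/6 of 13 to 15 weeks. Every diet contained 0.08% cholesterol, and the ezetimibe diet also contained 0.01% ezetimibe, an inhibitor of NPC1L1, through which enterocytes take up cholesterol. Wild-type mice (WT) were compared with mice carrying a global knockout of Aster-B and Aster-C (KO), sterol transfer proteins encoded by Gramd1b and Gramd1c. There were 4 WT and 3 KO libraries on the control diet, and 4 WT and 4 KO libraries on ezetimibe. The knockout was in the whole body, so no cell type is singled out by the model. The labels do not say whether each library is a separate mouse, and if it is not, p-values measure a spread that may be technical.

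LXRα and LXRβ are nuclear receptors that are activated by oxysterols, oxidised forms of cholesterol, and bind DNA as heterodimers with RXR at paired half-sites. Without ligand they are held by corepressors at many target genes, and with ligand those genes are induced. In the intestine LXR targets include the cholesterol exporter gene Abca1, which is used below as the reference target because its change here is already known.

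Depth, as whole reads recovered from the normalised counts, was between 13855034 and 19307079 reads per library. Across genes, r was 0.966 to 0.987 between pairs of libraries within a group. Gramd1c was between 71.8 and 194.0 normalised counts in the KO libraries and between 1059 and 1845 in WT, and Gramd1b was between 962 and 2086 in KO and between 2274 and 4046 in WT. Npc1l1, which encodes the target of ezetimibe, rose with the drug in KO (0.86 ± 0.168 on the log2 scale, limma adjusted p = 0.0423) and was at 0.29 ± 0.156 in WT. The call was lost without KO control replicates 1 or 2 or KO ezetimibe replicates 2 or 3 (limma adjusted p = 0.0772 to 0.157), and without WT control replicate 4 and KO ezetimibe replicate 3 together (0.76, limma adjusted p = 0.112). It was also lost when only the KO groups were fitted (limma adjusted p = 0.129). All 8 enterocyte markers were present, with summed normalised counts of 694700 to 1079000 per library, against at most 412 for 3 hepatocyte markers and at most 248 for 4 pancreas acinar markers. On the first principal component, which held 27.7% of the variance, WT control replicate 4 (52.6) and KO ezetimibe replicate 3 (-58.6) lay at the ends. Values without both libraries are given beside the calls that this ends.

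Reference target Abca1 set the scale. Abca1 was 2299, 1556, 1735 and 1446 normalised counts in WT control, and 601, 439 and 641 in KO control. On ezetimibe it was 213, 128, 196 and 195.9 in WT, and 115, 84.7, 105 and 98.0 in KO. Every group was separate from every other, in the order WT control, KO control, WT ezetimibe, KO ezetimibe. Abca1 fell in KO on the control diet (log2 fold change -1.64 ± 0.194 SE, limma adjusted p = 0.0022) and with ezetimibe in WT (-3.26 ± 0.180, limma adjusted p = 9.51e-08) and in KO (-2.46 ± 0.194, limma adjusted p = 1.86e-05). On ezetimibe its KO difference of -0.84 ± 0.180 had a limma adjusted p of 0.171.

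In the 4 single comparisons none of the 7 genes passed the test. Of the 7, limma called 0 in KO against WT on the control diet, where 0.371% of all genes tested were called, and 0 in KO against WT on ezetimibe, where 0.00699% were called. It called 0 of the 7 with ezetimibe in WT, against 0.217% of all genes, and 0 with ezetimibe in KO, against 0.727%. Counts with an unadjusted p under 0.05 were 1, 3, 1 and 2 of the 7 in the same order, and the shares of all genes were 14.7%, 16.4%, 5.08% and 22.9%. edgeR called 0 in each of these comparisons, and DESeq2 called 0 except with ezetimibe in KO, where it called Nr1h2 (adjusted p = 0.0445) and 8.08% of all genes. For the genotype by diet interaction limma called 0 of the 7 and 0 genes in all, 0% of those tested, with 0 of the 7 and 7.02% of all genes at an unadjusted p under 0.05, and edgeR and DESeq2 called 0 of the 7.

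Averaged over both diets, KO against WT called 1 of the 7, Lpcat3, which rose, against 4.04% of all genes. Averaged over both genotypes, ezetimibe against control called 0 of the 7 by limma, against 2.48% of all genes, with 3 of the 7 and 20.2% of all genes at an unadjusted p under 0.05. There edgeR called 0 and DESeq2 called 1, Nr1h2 (adjusted p = 0.0169), and 6.65% of all genes. The 4 single comparisons share libraries, since each group enters a pair of them, so they are set side by side and not counted as independent. The authors' deposited tables of KO against WT list 424 genes for the control diet and 72 for ezetimibe, and 0 of the 7 are among either, while both list Abca1 (log2 fold change -1.65 and -0.86).

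**Figure D1:**
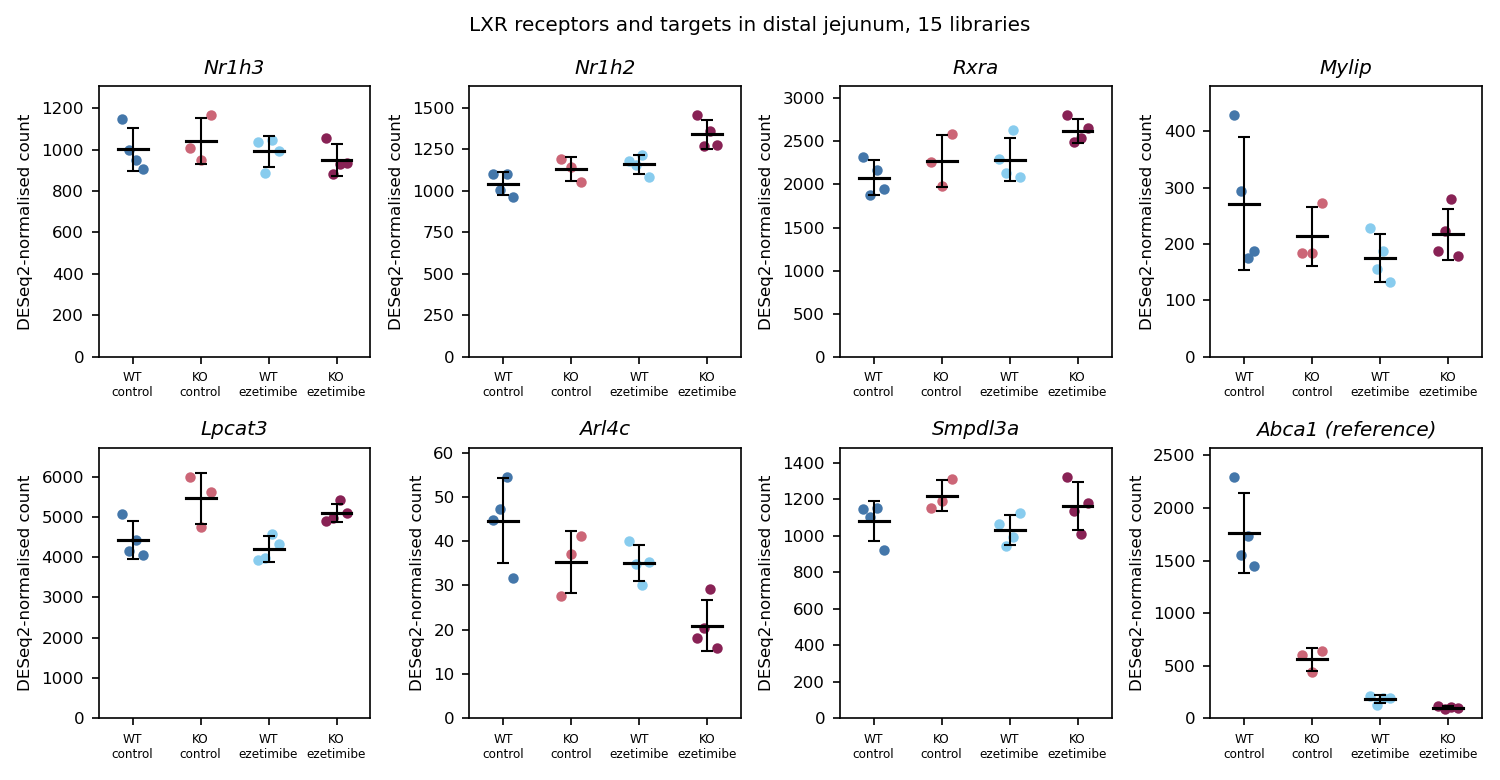
DESeq2-normalised counts (y axis, from 0) of the 7 genes and of Abca1 in each of the 15 libraries, by group, with the mean (wide line) and SD (error bars). Abca1 drops from a mean of 1759 in WT control to 101 in KO ezetimibe, while the group means of Nr1h3 stay between 949.9 and 1042.

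**Figure D2:**
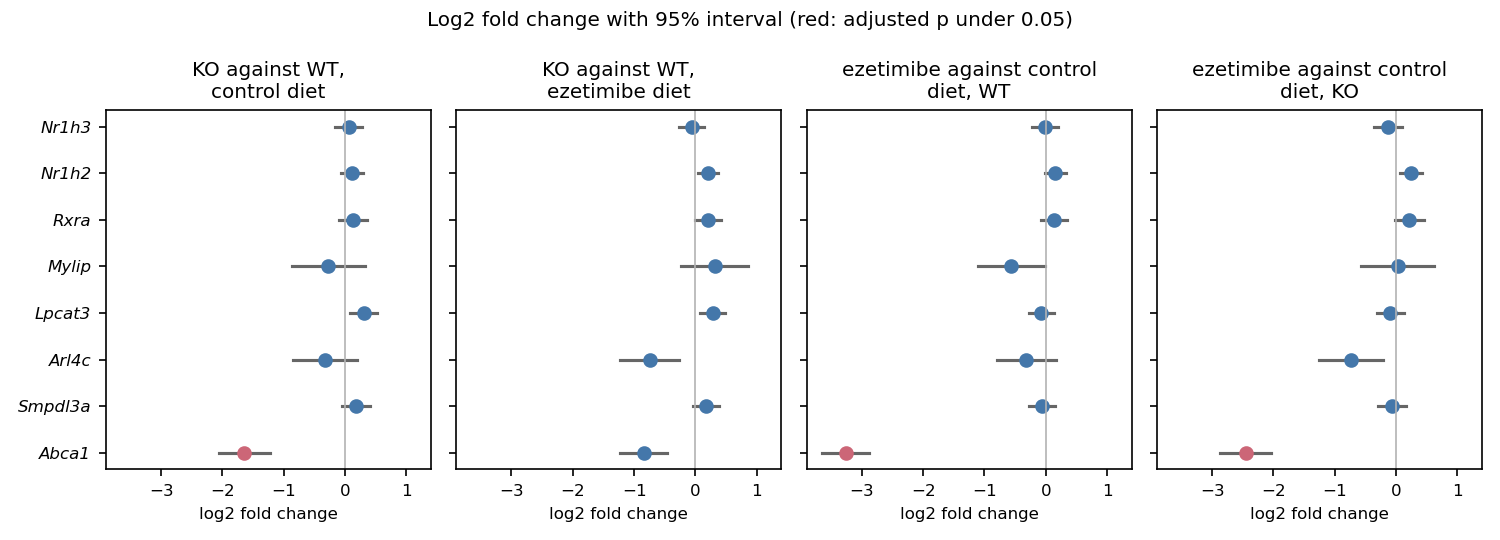
Log2 fold changes (x axis, points) with 95% confidence intervals (lines) from limma for the 7 genes and Abca1 in the 4 single comparisons, red where the limma adjusted p is under 0.05. The intervals of Abca1 lie far below 0 with ezetimibe (-3.26 in WT), while those of Nr1h3 span 0 in all 4.

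Measured within each library, the change of the 7 genes less that of Abca1 was between 1.32 and 1.94 on the log2 scale in KO against WT on the control diet and between 0.095 and 1.15 on ezetimibe. It was between 2.70 and 3.41 with ezetimibe in WT and between 1.71 and 2.70 with ezetimibe in KO. Each ratio to Abca1 was separate between the groups for 7 of 7 genes, except on ezetimibe in KO against WT, where 6 of 7 were separate and Arl4c overlapped. Over all genes tested the ratio to Abca1 was separate for 86.2% (KO, control diet), 46.7% (KO, ezetimibe), 98.7% (ezetimibe, WT) and 96.3% (ezetimibe, KO), so the counts say little about the 7. These ratios are descriptions, as Abca1 was chosen with its change known.

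Per kilobase of exon the 7 genes spanned a wide range of levels, given as mean ± SD over 15 libraries. Lpcat3 stood highest at 1453 ± 192 normalised counts per kb, followed by Smpdl3a at 541 ± 56.7, Rxra at 424 ± 52.8, Nr1h3 at 395 ± 34.5 and Nr1h2 at 349 ± 39.5. Mylip (68.0 ± 22.9) and Arl4c (6.17 ± 1.98) were lowest. The lowest library of Lpcat3 (1199) lay above the highest of Smpdl3a (641.5), whereas the ranges of Smpdl3a, Rxra, Nr1h3 and Nr1h2 overlapped from each neighbour to the next. The lowest of Nr1h2 (287) lay above the highest of Mylip (133), and the lowest of Mylip (40.8) above the highest of Arl4c (9.94). Abca1, at 8.17 to 222 over the libraries, spanned the range of Mylip, with WT control above it and both ezetimibe groups below it.

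**Figure D3:**
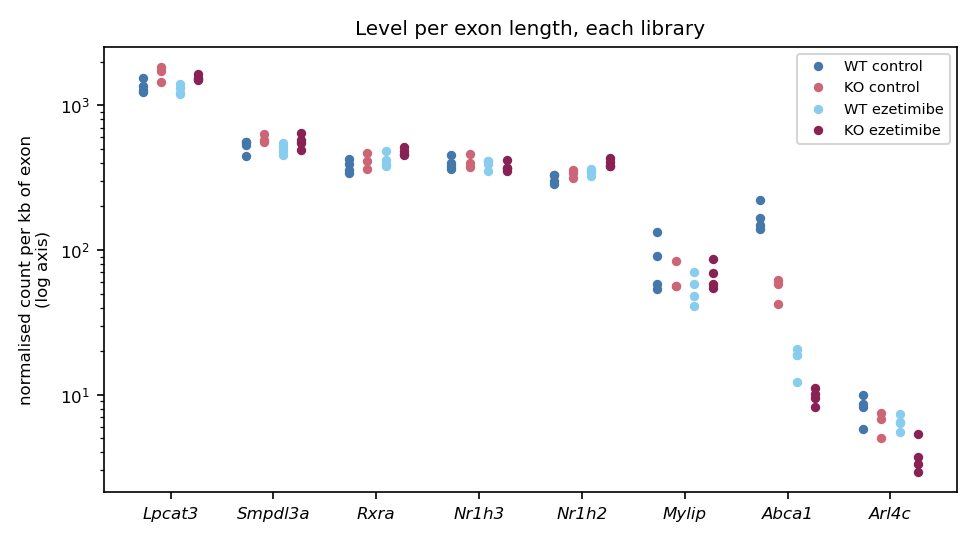
Level of each gene per kilobase of exon (log axis, normalised counts per kb) in the 15 libraries, coloured by group, with Abca1. Lpcat3 is highest at a mean of 1453 and Arl4c lowest at 6.17, and the 3 receptors lie between 287 and 513.5.

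Nr1h3 (ENSMUSG00000002108, chromosome 2, 91184061 to 91202834, minus strand, mm10) encodes LXRα, the form enriched in liver, gut and macrophages. It was 907 to 1145 normalised counts in WT control (1000 ± 103 SD, n = 4), 950.1 to 1167 in KO control (1042 ± 112, n = 3), 886 to 1045 in WT ezetimibe (990.5 ± 73.7, n = 4) and 880.2 to 1057 in KO ezetimibe (949.9 ± 75.4, n = 4). All 4 groups overlapped. The log2 difference of KO from WT was 0.06 ± 0.105 on the control diet and -0.06 ± 0.097 on ezetimibe (limma adjusted p = 0.854 and 0.765), with 95% intervals of -0.16 to 0.28 and -0.27 to 0.15. With ezetimibe the differences were -0.01 ± 0.097 in WT and -0.13 ± 0.105 in KO (limma adjusted p = 0.999 and 0.472).

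Nr1h2 (ENSMUSG00000060601, chromosome 7, 44549616 to 44553951, minus strand) encodes LXRβ, the form found in most tissues. It was 1100.0, 1004, 1100.3 and 964 normalised counts in WT control and 1195, 1146 and 1053 in KO control. On ezetimibe it was 1182, 1158, 1217 and 1083 in WT, and 1458, 1268, 1363 and 1275 in KO. The 4 KO ezetimibe libraries were the 4 highest of the 15, above both WT ezetimibe and KO control without overlap. Groups were without overlap for 3 of the 7 genes in KO against WT on ezetimibe, where that held for 9.93% of all genes, and for 1 of the 7 with ezetimibe in KO, where it held for 18%. It was 0 of the 7 in the comparison of genotypes on the control diet, against 12.2% of all genes, and 0 of the 7 with ezetimibe in WT, against 3.47%. The log2 difference was 0.21 ± 0.079 in KO against WT on ezetimibe (limma adjusted p = 0.254) and 0.24 ± 0.085 with ezetimibe in KO (limma adjusted p = 0.114). It was 0.12 ± 0.085 in KO against WT on the control diet and 0.16 ± 0.079 with ezetimibe in WT (limma adjusted p = 0.563 and 0.999).

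The ratio of Nr1h3 to Nr1h2 per kb was 1.39, 1.33, 1.15 and 1.26 in WT control, 1.13, 1.11 and 1.48 in KO control, 1.17, 1.02, 1.15 and 1.22 in WT ezetimibe, and 0.967, 0.926, 0.910 and 0.976 in KO ezetimibe. On this scale Nr1h2 was the higher of the pair in each KO ezetimibe library and Nr1h3 in each of the other 11. Which gene is higher depends on dividing by exon length, since in normalised counts Nr1h3 was above Nr1h2 in 2 of the 15 libraries, a scale added after seeing the data. That the 4 KO ezetimibe ratios are the lowest does not depend on it. Group means were 1.28 ± 0.101, 1.24 ± 0.209, 1.14 ± 0.0865 and 0.945 ± 0.0320 in that order. No test was made of the ratio.

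**Figure D4:**
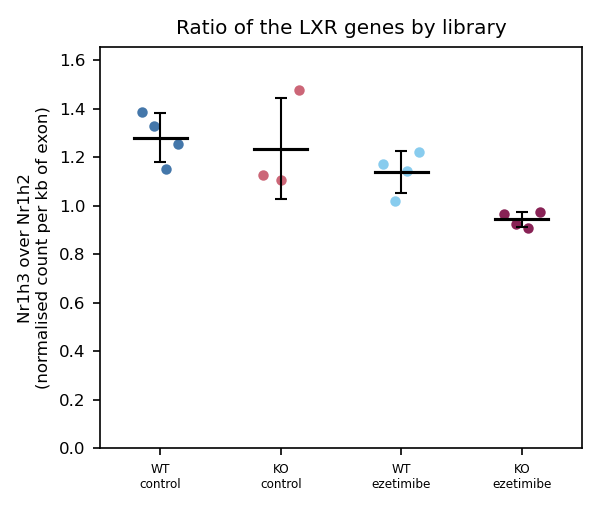
Ratio of Nr1h3 to Nr1h2 per kilobase of exon (y axis, from 0) in each library, with the group mean (wide line) and SD (error bars). The 4 KO ezetimibe libraries lie between 0.910 and 0.976, and the 11 others lie higher, from 1.02 to 1.48. Dividing by exon length sets where 1 falls, and in normalised counts Nr1h3 is above Nr1h2 in 2 of 15 libraries.

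Rxra (ENSMUSG00000015846, chromosome 2, 27676440 to 27762957, plus strand) encodes RXRα, a partner of both LXRs and of several other receptors. Another RXR gene, Rxrb, was at 84.5 ± 14.6 normalised counts per kb over the 15 libraries. Rxra was 1875 to 2319 normalised counts in WT control (2075 ± 203), 1981 to 2580.0 in KO control (2272 ± 300), 2082 to 2632 in WT ezetimibe (2286 ± 248) and 2493 to 2805 in KO ezetimibe (2622 ± 140.1), and every group overlapped in the comparisons made. The log2 differences of KO from WT were 0.13 ± 0.110 on the control diet and 0.20 ± 0.102 on ezetimibe (limma adjusted p = 0.639 and 0.321). With ezetimibe they were 0.14 ± 0.102 in WT and 0.21 ± 0.110 in KO (limma adjusted p = 0.999 and 0.255).

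Lpcat3 (ENSMUSG00000004270, chromosome 6, 124663027 to 124704418, plus strand) encodes the acyltransferase that places polyunsaturated fatty acids, arachidonate among them, into membrane phospholipids, and in mouse intestine it is known to affect lipid absorption. It was 5069.5, 4148, 4435 and 4047 normalised counts in WT control and 6000.0, 4747 and 5617 in KO control. On ezetimibe it was 3918, 3978, 4583 and 4325 in WT, and 4891, 4982, 5416 and 5089 in KO. All KO ezetimibe libraries lay above all WT ezetimibe libraries, while the highest WT control library lay above the lowest KO control library. Averaged over both diets, Lpcat3 rose in KO by 0.29 ± 0.070 on the log2 scale, 1.22-fold (limma adjusted p = 0.0352, 95% interval 0.14 to 0.44). Within each diet the same difference was 0.30 ± 0.103 on the control diet (limma adjusted p = 0.18) and 0.28 ± 0.095 on ezetimibe (limma adjusted p = 0.238). Its interaction of genotype and diet was -0.02, and with ezetimibe the difference was -0.07 ± 0.095 in WT and -0.09 ± 0.103 in KO.

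The call of Lpcat3 held with edgeR (adjusted p = 0.0386) and DESeq2 (adjusted p = 0.00307), and was lost when no filter on low values was used (limma adjusted p = 0.0625). It passed the threshold in 5 of 15 fits that each left out 1 library, with fold changes between 0.254 and 0.339 on the log2 scale. It did not pass without WT control replicates 2, 3 or 4 (limma adjusted p = 0.0681, 0.0511 and 0.0664), KO control replicates 1 or 3 (0.106 and 0.0786), WT ezetimibe replicates 1, 2 or 4 (0.061, 0.0773 and 0.0577) or KO ezetimibe replicates 3 or 4 (0.0522 and 0.0651). Without both libraries at the ends of the first component the difference was 0.26 on the log2 scale (limma adjusted p = 0.0901). Exons of Lpcat3 share 334 bases with Emg1 on the opposite strand, and whether counting used strand is not stated. Emg1, chosen for this check after its values were seen, differed by -0.18 ± 0.113 over both diets (limma adjusted p = 0.361).

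Summed counts of the 8 enterocyte markers, like Lpcat3, were separate between genotypes on ezetimibe and overlapped on the control diet. They were 904800 to 1079000 in KO ezetimibe and 702200 to 864800 in WT ezetimibe, without overlap, and 927200 to 1021000 in KO control against 694700 to 997300 in WT control. Of the 8 markers, 6 were higher in KO on the control diet (median log2 difference 0.091) and 8 on ezetimibe (0.291). Vil1 and Sis had lower means in KO control than in WT control. Summed counts of the 7 proliferation markers were 489 to 1003 in KO control and 817 to 1153 in KO ezetimibe, below 1196 to 3015 and 1257 to 1926 in WT on the same diets. The part of either in the result of Lpcat3 was not tested. In whole tissue, fewer cells of a type and less RNA per cell cannot be told apart.

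To show what lies upstream of the reference target and of the only called gene, the RefSeq promoter windows of Abca1 and Lpcat3 (GRCm38.p6, 250 bases before to 50 after the start) are printed in the direction of the gene. Capitals mark the stretch closest to the DR4 element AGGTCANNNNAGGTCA, the pair of half-sites with 4 spacer bases to which LXR and RXR bind, searched on both strands. In Abca1 (chr4:53159846-53160145, minus strand) it lies 67 to 52 bases before the start with 3 mismatches among 12 fixed bases, and in Lpcat3 (chr6:124662854-124663153, plus strand) 99 to 84 bases before the start with 4.
Abca1 promoter: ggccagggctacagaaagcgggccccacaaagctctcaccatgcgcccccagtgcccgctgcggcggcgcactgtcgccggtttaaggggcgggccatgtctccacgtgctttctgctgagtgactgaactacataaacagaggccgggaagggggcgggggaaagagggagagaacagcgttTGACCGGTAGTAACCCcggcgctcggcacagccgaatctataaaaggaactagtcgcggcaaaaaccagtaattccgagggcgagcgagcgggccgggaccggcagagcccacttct
Lpcat3 promoter: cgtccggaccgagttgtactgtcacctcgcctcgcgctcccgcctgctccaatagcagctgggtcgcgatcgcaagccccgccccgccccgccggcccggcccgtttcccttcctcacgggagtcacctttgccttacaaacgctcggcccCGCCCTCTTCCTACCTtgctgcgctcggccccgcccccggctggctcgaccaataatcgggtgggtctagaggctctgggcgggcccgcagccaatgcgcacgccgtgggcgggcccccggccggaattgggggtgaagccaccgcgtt

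Both stretches read the motif on the strand opposite to the gene. Of 32851 RefSeq promoter windows, 0.02% held the motif without mismatch, 0.25% with up to 1, 3.02% with up to 2, 21.88% with up to 3 and 76.9% with up to 4. Windows were matched for 6 of the 7 genes, all but Smpdl3a, with a pair each for Rxra and Nr1h3. No window of the 6 held the motif with 2 mismatches or fewer. The closest stretch of each gene is shown so that the genes can be compared with each other and with Abca1, written along the motif with the half-sites in capitals. Arl4c had a pair of overlapping stretches with 3 mismatches, of which 1 is printed.
Abca1, 3 mismatches: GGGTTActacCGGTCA
Arl4c, 3 mismatches: GGGTCAggcgGGGTCT
Rxra second window, 3 mismatches: GTGGCAggaaAGGTCA
Lpcat3, 4 mismatches: AGGTAGgaagAGGGCG
Nr1h3, 4 mismatches: AGGTCCcggcACGGCC
Nr1h2, 4 mismatches: AGTTCCggaaAGTTCT
Mylip, 5 mismatches: AGTTCCcgggAGCTAC

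A match at this many mismatches is common among promoters, and a window of this length says nothing of binding elsewhere.

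Mylip (ENSMUSG00000038175, chromosome 13, 45389742 to 45412022, plus strand) encodes the ubiquitin ligase, also called IDOL, that marks lipoprotein receptors for degradation. It was 429, 294, 175 and 188.5 normalised counts in WT control and 183, 184 and 273 in KO control. On ezetimibe it was 229, 155, 187 and 132 in WT, and 188, 223, 279 and 178 in KO. WT control was spread most widely, with a coefficient of variation of 43.25%, and all groups overlapped in the comparisons made. With ezetimibe in WT the log2 difference was -0.56 ± 0.259 (limma adjusted p = 0.968, 95% interval -1.11 to -0.01), and in KO it was 0.03 ± 0.280 (limma adjusted p = 0.967). KO differed from WT by -0.28 ± 0.280 on the control diet and by 0.31 ± 0.259 on ezetimibe (limma adjusted p = 0.699 and 0.526), and the interaction was 0.59 ± 0.381 (limma adjusted p = 0.709). Leaving out 1 library at a time moved the difference of KO from WT on the control diet between -0.467 (without KO control replicate 3) and -0.026 (without WT control replicate 1). It moved that of ezetimibe in WT between -0.739 (without WT control replicate 3) and -0.31 (without WT control replicate 1).

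Arl4c (ENSMUSG00000049866, chromosome 1, 88673125 to 88702221, minus strand) encodes a small GTPase of the ARF family that recruits cytohesins to the membrane. It was 44.9, 47.2, 54.6 and 31.6 normalised counts in WT control and 27.6, 37.1 and 41.2 in KO control. On ezetimibe it was 40.1, 34.7, 30.2 and 35.3 in WT, and 18.2, 20.4, 29.2 and 15.98 in KO. All 4 KO ezetimibe libraries lay below all WT ezetimibe libraries, and KO ezetimibe overlapped KO control only through its highest library. These levels rest on 15 to 53 recovered reads per library, so counting error is large.

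The log2 difference of Arl4c was -0.75 ± 0.227 in KO against WT on ezetimibe (limma adjusted p = 0.223) and -0.74 ± 0.245 with ezetimibe in KO (limma adjusted p = 0.0996). It was -0.32 ± 0.245 in KO against WT on the control diet and -0.32 ± 0.227 with ezetimibe in WT (limma adjusted p = 0.586 and 0.999). Over both diets the difference was -0.53 ± 0.167 (limma adjusted p = 0.0773). Without both libraries at the ends of the first component it was -0.69 and Arl4c passed (limma adjusted p = 0.0327). Summed counts of the 10 macrophage and myeloid markers were lowest in KO ezetimibe, at 271 to 506 against 475 to 841 in WT ezetimibe, 761 to 1033 in KO control and 481 to 1330 in WT control. All 10 were detected in the table, Marco at no more than 1.86 in any library and at 0 in KO ezetimibe. The 8 T and NK cell markers summed to 4659 to 6363 in KO ezetimibe, 6309 to 8680 in WT ezetimibe, 3400 to 4533 in KO control and 4386 to 7342 in WT control. Their part in the values of Arl4c was not tested.

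Smpdl3a (ENSMUSG00000019872, chromosome 10, 57794335 to 57811830, plus strand) encodes a phosphodiesterase related to acid sphingomyelinase, and in human macrophages it is known as an LXR target. It was 924 to 1155 normalised counts in WT control (1082 ± 108), 1152 to 1314 in KO control (1218 ± 84.6), 942 to 1127 in WT ezetimibe (1031 ± 80.7) and 1012 to 1325 in KO ezetimibe (1163 ± 129), and the groups overlapped in the comparisons made. The log2 differences of KO from WT were 0.18 ± 0.108 and 0.17 ± 0.10 on the control and ezetimibe diets (limma adjusted p = 0.480 and 0.375). With ezetimibe they were -0.07 ± 0.10 in WT and -0.07 ± 0.108 in KO, with 95% intervals of -0.28 to 0.15 and -0.30 to 0.16.

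Over the 7 genes the median log2 difference of KO from WT was 0.119 on the control diet and 0.203 on ezetimibe. Over all genes it was -0.005 and -0.002. The shift was not particular to the 7, with medians of 0.099 and 0.141 for 12 other RXR genes and partners. For the 8 enterocyte markers they were 0.091 and 0.291, and for 12 nuclear receptor coregulators -0.173 and 0.076. The part of enterocyte content in the medians of the 7 was not tested. With ezetimibe the medians of the 7 were -0.066 in WT and -0.072 in KO, against -0.01 and 0.006 over all genes. An unadjusted p under 0.05 was reached by 5 of the 7 in KO against WT over both diets, and by 22.2% of the genes tested. Of these 5, Arl4c was lower in KO (-0.53), while Nr1h2, Rxra, Lpcat3 and Smpdl3a were higher.

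Genes around the 7 were taken from 10 lists chosen for their roles, with 70 other genes tested. The lists were chosen with earlier results of these data known, so their counts of calls are descriptions. In KO against WT, limma called 1 higher (Insig1) and 1 lower (Abca1) on the control diet, where it called 0.371% of all genes. Insig1 lost that call without WT control replicates 2 or 3 or any KO control replicate (limma adjusted p = 0.0514 to 0.237), and when only the control-diet groups were fitted (0.244). On ezetimibe it called 0, as did edgeR, while DESeq2 called 3, against 0.601% of all genes, and 14 of the 70 reached an unadjusted p under 0.05, as 16.4% of the genes tested did. With ezetimibe limma called 6 higher and 2 lower in WT, against 0.217% of all genes. In KO it called 5 higher and 2 lower, against 0.727%. In these comparisons edgeR called 8 and 6 of the 70, and DESeq2 called 10 and 20. Of all genes DESeq2 called 8.08% with ezetimibe in KO. The other numbers of all genes that edgeR and DESeq2 called are given under how the results depend on the processing. An unadjusted limma p under 0.05 was reached by 13 and 25 of the 70, against 5.08% and 22.9% of all genes.

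Of the 6 higher calls with ezetimibe in WT, 5 were SREBP2 reference genes. Among them Insig1, which retains the SREBP escort protein, rose by 1.17 on the log2 scale (limma adjusted p = 0.000788) and in KO by 1.07 (limma adjusted p = 0.00613), and Hmgcs1, an early enzyme of cholesterol synthesis, rose by 1.05 in WT (limma adjusted p = 0.00699). Cyp51, Sqle and Srebf2 rose in WT and also in KO, Cyp51 by 1.44 and 1.24 (limma adjusted p = 0.00286 and 0.0192). In KO each of these 3 lost its call without KO control replicates 1 or 2 or KO ezetimibe replicate 3 (limma adjusted p = 0.0509 to 0.133) and without both libraries (0.0775 to 0.111), and Sqle and Srebf2 also without KO ezetimibe replicate 2 (0.0772 and 0.0762). When only the KO groups were fitted, Srebf2 lost its call in KO (limma adjusted p = 0.0882). In WT Sqle lost its call without WT ezetimibe replicates 2 or 4 (0.0595 and 0.0663), and when only the WT groups were fitted (0.0578). Of the substrates of the Mylip protein, the lipoprotein receptor genes Vldlr and Lrp8, which are named here after their values were seen, were at -0.42 ± 0.154 and -0.55 ± 0.317 in KO over both diets (limma adjusted p = 0.126 and 0.323).

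Among LXR targets outside the 7, Abcg5, which with Abcg8 exports sterols into the gut lumen, fell with ezetimibe in WT (-0.84 ± 0.135, limma adjusted p = 0.0137) and was at -0.62 ± 0.146 in KO (limma adjusted p = 0.0553). Its call was lost without WT control replicate 3 or WT ezetimibe replicates 2 or 4 (limma adjusted p = 0.0559, 0.0597 and 0.0651). Apoe, an apolipoprotein gene expressed in macrophages, fell with ezetimibe in KO (-1.86 ± 0.410, limma adjusted p = 0.0491), where the macrophage and myeloid markers were also lowest, and their part in it was not tested. The call of Apoe was lost with edgeR (adjusted p = 0.0519), without each KO library in turn other than KO ezetimibe replicate 4 (limma adjusted p = 0.0535 to 0.168) and without both libraries at the ends of the first component (-1.57, limma adjusted p = 0.136). Pseudocounts of 0.5 and 5 also ended it (limma adjusted p = 0.0501 and 0.0505), as did no filter (0.0545) and a fit of the KO groups only (0.0816). Of the 6 lipogenic targets limma and edgeR called 0 in each comparison, and DESeq2 called 1 in 3 of them. These 3 were KO against WT on the control diet, KO against WT over both diets, and ezetimibe in KO. With ezetimibe in KO DESeq2 called 8.08% of all genes. Its numbers of genes for the others are given under how the results depend on the processing. Scd1, a fatty acid desaturase gene, was at 1.93 ± 0.524 in KO on the control diet (limma adjusted p = 0.105), and the authors' deposited table for that comparison lists it at 2.02 (adjusted p = 0.0237). Its normalised counts per kb were 158, 111 and 35.0 in KO control and 17.0, 44.4, 12.4 and 26.0 in WT control, so these groups overlapped. Acaca, which encodes acetyl-CoA carboxylase, was at 0.27 ± 0.147 with ezetimibe in KO (limma adjusted p = 0.272). At an unadjusted p under 0.05 the lipogenic list had at most 2 genes in any comparison.

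Of 6 tested phospholipid acyltransferases other than Lpcat3, limma called Mboat7, which places arachidonate in phosphatidylinositol and rose in KO over both diets (0.27 ± 0.063, limma adjusted p = 0.0308). Its call was lost without WT control replicate 2, KO control replicates 1 or 3, WT ezetimibe replicates 2, 3 or 4 or KO ezetimibe replicate 4 (limma adjusted p = 0.0508 to 0.0901), and without both libraries (0.0669). It was also lost without a filter on low values (limma adjusted p = 0.0563). Among the other nuclear receptors that pair with RXR, Ppara fell with ezetimibe over both genotypes (-0.67 ± 0.165, limma adjusted p = 0.0469). With 1 library left out it kept the call only without KO control replicate 2, WT ezetimibe replicate 3 or KO ezetimibe replicate 1, and otherwise had a limma adjusted p of 0.0521 to 0.0958, and without both libraries 0.109. Without a filter on low values the limma adjusted p of Ppara was 0.0501.

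Of the 12 coregulators limma and edgeR called 0 in each comparison. DESeq2 called 6 with ezetimibe in KO, where 7 had an unadjusted p under 0.05, and 1 with ezetimibe over both genotypes, where 6 did. Of all genes DESeq2 called 8.08% and 6.65% in these comparisons, and 22.9% and 20.2% had an unadjusted p under 0.05. The coactivator gene Ncoa2 was at 0.53 ± 0.136 with ezetimibe in KO (limma adjusted p = 0.0578). Among relatives of Arl4c and Smpdl3a, Smpdl3b was at 0.49 ± 0.161 with ezetimibe in KO (limma adjusted p = 0.0961) and Cyth3, a cytohesin gene, at -0.42 ± 0.246 in KO on the control diet (limma adjusted p = 0.458).

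**Figure D5:**
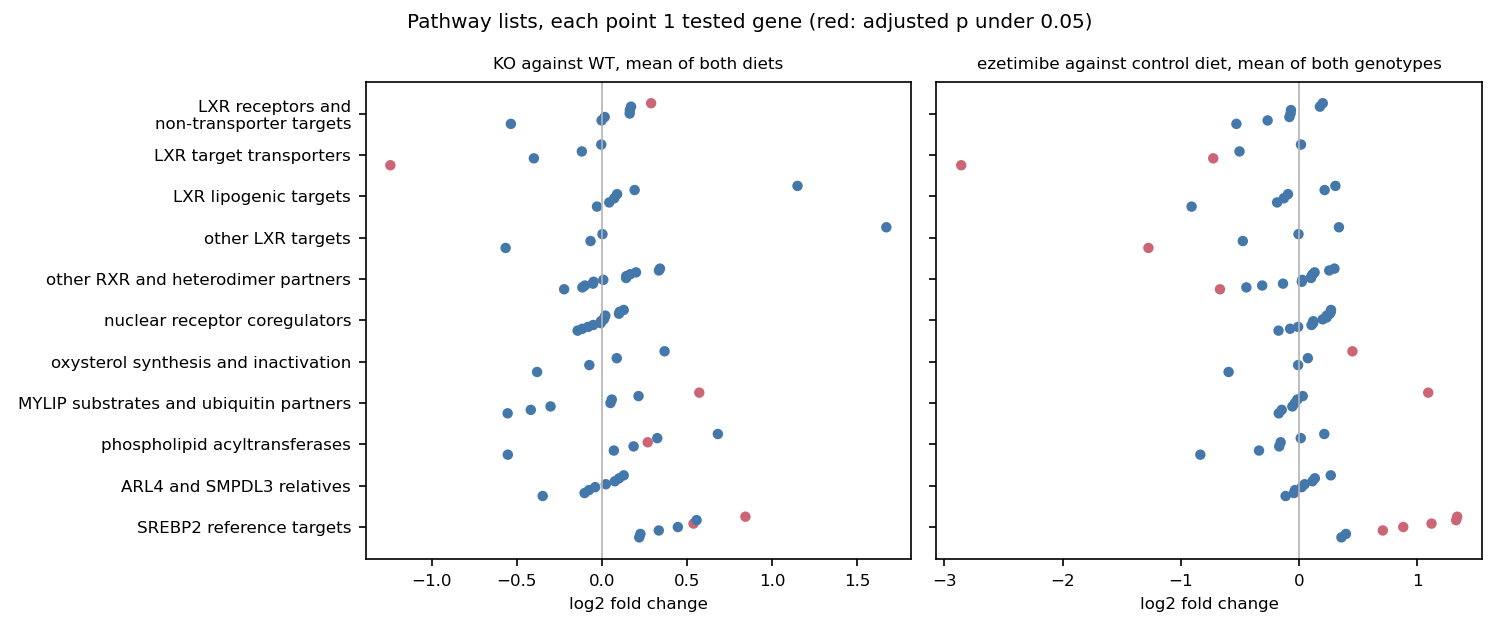
Log2 fold change (x axis) of each tested gene (points, red where the limma adjusted p is under 0.05) by list, for KO against WT over both diets and for ezetimibe against control over both genotypes. Lpcat3 (0.29) is the only red point among the 7 LXR genes, and Abca1 among the transporters lies farthest below 0 on both sides (-1.24 and -2.86).

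For each of the 7, the 3 genes with the most similar profile were found by the mean absolute difference of centred log2 levels over the 15 libraries. Nr1h2 lay closest to Rab5c (0.0541), Tcf25 (0.0542) and Tmbim6 (0.0596), Nr1h3 to Trappc3 (0.0596), Vdac3 (0.067) and Ap5m1 (0.0673), and Rxra to Tmem127 (0.0435), Kif1c (0.0559) and Cds1 (0.0606). Their own mean absolute deviations were 0.124, 0.099 and 0.150. The closest of 14299 tested genes would lie nearer than this for almost any profile, so no conclusion is drawn from it. Lpcat3 lay closest to Afg3l2 (0.0573), Tom1l1 (0.0656) and Rap1gds1 (0.0696), and Smpdl3a to Idh3g (0.0687), Fbxo9 (0.0696) and Ap3s1 (0.0723). Mylip was closest to Acss1 (0.155), Flvcr1 (0.175) and Ddhd2 (0.191), and Akr1b10 (0.231) was among the 3 closest to Arl4c, against their own mean absolute deviations of 0.332 and 0.380. These distances are descriptions, taken over libraries that share genotype and diet.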

How the data were processed

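Per the labels' protocols, TRIzol was used on the frozen tissue and NEBNext Ultra II reagents for the libraries. The submitters' processing notes name FastQC, STAR 2.6.0c, mm10 and DESeq2. Counter, annotation and use of strand were not given in the sources used. The deposited table holds a signal, DESeq2-normalised counts, of 26844 genes in 15 libraries, per the file headers. In every library 100% of its values were whole multiples of what 1 read is worth (tolerance 0.001), so whole reads were recovered. In 2 further deposited tables of KO against WT the authors gave log2 fold changes with standard errors, p-values, a fold (ratio) and a Wald score. These values appear only under that name.

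Groups came from the labels. limma 3.58.1 (R 4.3.3) with a mean-variance trend was fitted on log2(value + 1) to all 15 libraries, with p-values adjusted by Benjamini-Hochberg over 14299 genes and calls at 0.05. Fold changes on this scale understate those of low genes. edgeR 4.0.16 and DESeq2 1.42.0 ran on the recovered reads as alternatives, beside other pseudocounts (0.5 and 5), no filter, a filter at a mean of 50, TMM, the replicate block, the compared groups alone, each library left out, and WT control replicate 4 and KO ezetimibe replicate 3 left out together. Scripts were tested on simulated data. Annotation is GENCODE M21 (26825 identifiers, 99.93%, matched), and promoters are from RefSeq. The text names all 7 members, list genes called in any comparison or otherwise the pair of smallest p in a list, and the 3 closest profiles of each member. Some genes that this rule names are not reported here. The members and lists were chosen with earlier results of these data known.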

Additional observations from a re-analysis of the deposited data

How the results depend on the processing

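Genes called moved with these settings. KO against WT on the control diet called 17 with a pseudocount of 5, 12 without a filter, 231 with the replicate block, 12 with edgeR, 442 with DESeq2, 25 without WT control replicate 4 and KO ezetimibe replicate 3, and 3 with the compared groups alone, against 53. On ezetimibe it called 6 with the block, 86 with DESeq2 and 3 with the compared groups alone, against 1. Ezetimibe in WT called 54 with the block, 94 with DESeq2, against 31. Ezetimibe in KO called 54 without a filter, 330 with the stricter filter, 1915 with the block, 1155 with DESeq2, 12 without both libraries and 14 with the compared groups alone, against 104. The interaction called 5 with DESeq2, against 0 with limma and with edgeR. Beyond the control diet edgeR called 1 for KO on ezetimibe, 34 and 97 for ezetimibe in WT and KO, 551 for KO over both diets and 368 for ezetimibe over both genotypes. KO against WT over both diets called 320 without a filter, 922 with the block, 1220 with DESeq2 and 280 without both libraries, against 578. Ezetimibe over both genotypes called 1489 with the block, 951 with DESeq2 and 108 without both libraries, against 354.

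Of the 7 genes, KO over both diets called 0 without a filter (Lpcat3, limma adjusted p = 0.0625) and 2 with the block (Lpcat3 and Arl4c, -0.58, adjusted p = 0.0472). With the block Nr1h2 was called with ezetimibe in KO (0.28, adjusted p = 0.0338) and over both genotypes (0.22, adjusted p = 0.0228), 1 gene each, as with DESeq2. Without both libraries 1 was called with ezetimibe over both genotypes (Arl4c, -0.69, adjusted p = 0.0492). Same-numbered libraries correlated with r from -0.242 to 0.331 over 21 pairs, of which 12 exceeded 0.1, with a median of 0.125 against -0.025 for other pairs. Since not every pair exceeded 0.1, and 2 of 15 libraries correlated best with their own number, the main fit did not use the numbers. This rule cannot show that the numbers mark nothing shared. The labels do not say whether they stand for a cage, litter or day, and this was not tested.

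Leaving out each library gave 3 to 126 calls for KO on control, 1 for KO on ezetimibe, 17 to 34 for ezetimibe in WT, 5 to 456 in KO, 0 to 1 for the interaction, 33 to 1206 for KO over both diets and 150 to 576 for ezetimibe over both genotypes. Of the 7 genes 0 to 1 were called for KO over both diets. Small differences changed sign. Nr1h3 ranged from -0.025 to 0.126 for KO on control, -0.057 to 0.055 for ezetimibe in WT and -0.043 to 0.033 for KO over both diets. Mylip ranged from -0.078 to 0.143 for KO over both diets and -0.099 to 0.219 for ezetimibe in KO, and interactions from -0.02 to 0.171 (Rxra), -0.117 to 0.052 (Lpcat3) and -0.07 to 0.068 (Smpdl3a). The interaction of Smpdl3a was 0.001 with the block, 0.004 with DESeq2 and 0.133 without both libraries. Mylip in KO over both diets was -0.042 with the block, -0.033 with edgeR, -0.025 with DESeq2 and -0.118 without both libraries, and with ezetimibe in KO -0.099 without both. The cause was not tested. TMM moved no count by over 1.5 times. Counts at the level of Arl4c limit what can be detected.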

Other observations

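Several genes of the LXR pathway were too low to be tested. Of the enzymes that make or clear oxysterols, Ch25h, which makes an oxysterol ligand of LXR, reached at most 5.10 normalised counts in any library. Cyp46a1 reached at most 2.11 and Cyp7b1 at most 2.04. The list also held 4 tested genes, among them Cyp27a1 with 397 to 2329 recovered reads per library and Sult2b1 with 2778 to 4075. The macrophage LXR target Cd5l reached at most 2.73. The third RXR gene, Rxrg, reached at most 1.06.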
